A study of Mus musculus with 6 samples.

Results

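The data described here are the 3 wild type arrays of a series of 6. They give the transcripts in RNA of a Ter119-positive cell fraction, without any comparison of genotypes. The arrays were chosen by their titles, which name them as wild type biological repeats 1 to 3. Each was hybridised with total RNA of Ter119-positive fetal liver cells taken from mouse embryos at embryonic day 14.5, and each RNA came from a pool of 3 to 5 embryos of 1 genotype. The sources used here give neither the strain and sex of the embryos nor the purity of the Ter119-positive fraction. The other 3 arrays carry RNA of STAT5 knockout embryos and were not used. The arrays are called pool 1, pool 2 and pool 3 after their repeat numbers, which carry no order.

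Ter119 is a surface antigen that red cell precursors gain as they mature, and the fetal liver is the main blood-forming organ at this stage. Such cells fill with hemoglobin, so they make globin chains, take up iron through the transferrin receptor and build heme in mitochondria. They also assemble the spectrin-based membrane skeleton, divide a last few times and then lose their organelles and nucleus. The transcription factors GATA1, TAL1, LMO2, LDB1 and KLF1 drive many of these genes.

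Each array gave an intensity on a linear scale for 45101 probe sets. This intensity is called the signal, and levels are on the log2 scale. Where a gene had several probe sets, the one brightest on average over the 3 pools stood for it, which gave 18193 genes. The median log2 signal of all genes was 8.29. As mouse RNA holds no Bacillus subtilis transcripts, each array's control level was set from the 27 control probe sets for such transcripts, at their 95th percentile, a signal of 172.3, 168.1 and 169.9 in pools 1, 2 and 3. A gene is called above where all 3 pools exceeded their own control level, below where none did, and otherwise around that level. Above were 10592 genes, 58.2% of those measured, below were 4551 (25.0%), and around it were 3050. These 2 shares are the background for all counts of members given here. Probe sets differ in how well they bind their targets, so an order of signals is not an order of transcript amounts, and a signal at the control level does not show that a transcript is missing. Values are mean ± SD over n = 3 pools, and 3 arrays limit their precision.

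**Figure D1:**
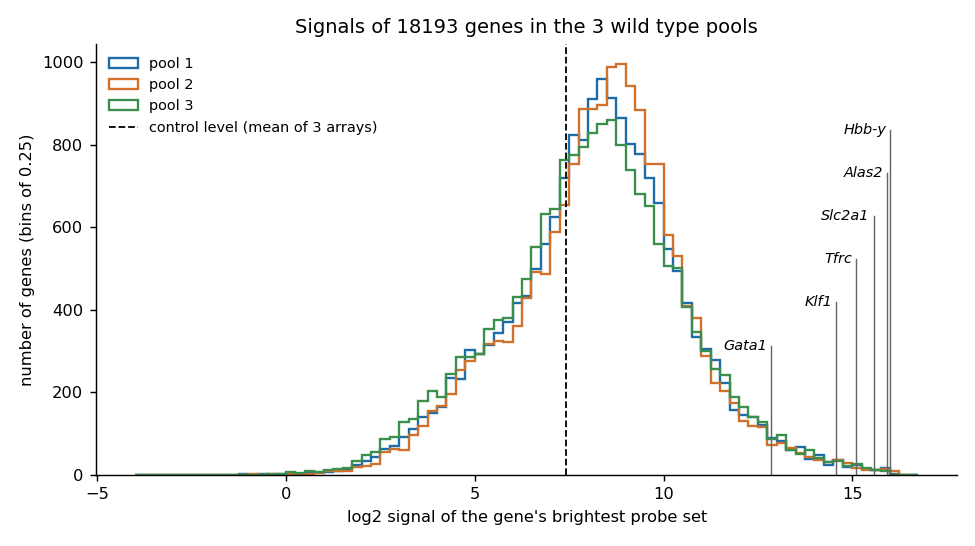
Number of genes (vertical axis) by log2 signal of the gene's brightest probe set (horizontal axis, bins of 0.25), 1 line for each of the 3 pools, with the control level dashed and the means of 6 erythroid marker genes as grey lines. All 6 markers, from Gata1 at 12.85 to Hbb-y at 15.99, lie in the upper tail, far to the right of the control level.

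The label was set beside 6 markers of erythroid cells. All 6 were above the control level in all 3 pools, as were 58.2% of all genes, so that call alone does not identify the cells. Hbb-y, an embryonic beta-type globin gene, read 15.97, 16.15 and 15.87 in pools 1, 2 and 3 and ranked 1 of 18193. All 3 of its probe sets carry _x_at or _a_at in their name, which marks sets that can bind more than 1 transcript. The other 2 had means of 15.99 and 15.61. Alas2, the erythroid gene for the enzyme that starts heme synthesis, read 15.95, 16.05 and 15.74 and ranked 5. Slc2a1, the glucose transporter GLUT1, read 15.51, 15.66 and 15.52 at rank 24. Tfrc, the transferrin receptor gene, gave 15.04, 15.10 and 15.15 at rank 54, and its other 2 probe sets had means of 14.40 and 11.88. The factor genes were dimmer: Klf1 read 14.64, 14.31 and 14.75 (rank 112) and Gata1 12.87, 12.56 and 13.11 (rank 493). In each case the 3 pools lay within 0.55 of each other, and no pool was the highest for all 6.

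The upstream sequences of 3 of these markers are shown because they carry letters of the kind that the factors above are known to bind. They are the 250 bases before the first start that RefSeq lists for the gene in GRCm38.p6, printed 5′ to 3′ on the gene's strand, with capitals marking AGATAA or CCNCNCCC on either strand, overlapping matches joined. Alas2 lies at chrX:150547167-150547416 on the plus strand, Gata1 at chrX:7967911-7968160 on the minus strand and Slc2a1 at chr4:119108495-119108744 on the plus strand.
Alas2: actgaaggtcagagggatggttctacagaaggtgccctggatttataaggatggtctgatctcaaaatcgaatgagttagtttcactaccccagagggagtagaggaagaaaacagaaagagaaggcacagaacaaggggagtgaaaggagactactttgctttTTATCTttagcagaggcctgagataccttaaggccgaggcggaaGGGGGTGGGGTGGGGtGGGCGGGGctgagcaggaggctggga
Gata1: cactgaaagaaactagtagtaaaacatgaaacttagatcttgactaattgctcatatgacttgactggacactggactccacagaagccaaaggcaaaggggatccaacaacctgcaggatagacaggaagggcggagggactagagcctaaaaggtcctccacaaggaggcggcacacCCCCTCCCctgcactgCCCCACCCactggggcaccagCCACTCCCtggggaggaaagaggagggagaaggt
Slc2a1: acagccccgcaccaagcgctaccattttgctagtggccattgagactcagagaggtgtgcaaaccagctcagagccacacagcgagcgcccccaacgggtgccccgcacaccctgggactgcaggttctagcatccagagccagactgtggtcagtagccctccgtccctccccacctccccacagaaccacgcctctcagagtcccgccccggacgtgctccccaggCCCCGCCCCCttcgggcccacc
Alas2 held 1 match to AGATAA, on the minus strand and beginning 86 bases before the start, and 4 matches to CCNCNCCC, partly overlapping, within 42 bases of it. Gata1 held 3 and Slc2a1 2 matches to CCNCNCCC, and neither held AGATAA. Tfrc held 3 matches to CCNCNCCC. The same windows of Klf1 and Hbb-y held neither run of letters, which says only that these exact letters are not there. Both hold TGATAA on the minus strand, which differs from AGATAA in its first letter and was not counted.

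The same letters were counted in the 100 brightest genes, of which 78 had a promoter in the RefSeq table. Among them AGATAA was present in 11.5%, where it was present in 7.47% of the promoters of genes measured and in 10.3% of all 27025 promoters. CCNCNCCC was present in 64.1%, where the share was 59.2% for genes measured and 45.6% for all promoters. CAGNTG, the kind of letters that TAL1 and its partners bind, was present in 26.9%, against 41.3% and 44.5%. All motifs were read on both strands. A match is no evidence of binding, and these shares are a description with no test.

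The highest signals belonged to genes of globin, heme and iron handling, of the red cell membrane, of translation and, among them, to 2 genes of liver cells. Of the 30 brightest genes, 3 encode enzymes of heme synthesis (Fech, Alas2 and Urod) and 3 handle iron (the ferritin heavy chain gene Fth1, the mitochondrial iron importer gene Slc25a37 and the iron-sulfur cluster gene Glrx5). Car2, a carbonic anhydrase, the anion exchanger gene Slc4a1 (band 3), Slc2a1 and Cd24a, the heat-stable antigen, are known from the red cell or its precursors. Antioxidant enzymes were represented by Gpx1, a glutathione peroxidase, and Prdx2, a peroxiredoxin. Ribosomal protein genes made up 5 of the 30 (Rps29, Rps2, Rpl41, Rplp0 and Rpl38) and 21 of the 100 brightest, and Eef1a1, Pabpc1 and Tpt1 also belong to translation or its control. Alb and Afp, the plasma proteins albumin and alpha-fetoprotein of hepatocytes, ranked 14 and 19. Besides Hbb-y, the remaining genes were Actb, cytoplasmic actin, Slc25a39, a mitochondrial glutathione carrier, Ctsb, a lysosomal protease, Oaz1, a regulator of polyamine synthesis, and 3 given below (Armc8, Xpo7 and Tmcc2).

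The order of neighbours within the 30 is not resolved. Means ran from 15.99 to 15.44, and all 29 neighbours in the order lay closer together than the larger of their SDs. With 30 genes in so narrow a span small gaps are bound to occur, so this count does not speak for genes further apart. The ends were apart in every pool, with Hbb-y at 15.97, 16.15 and 15.87 and Rpl38 at 15.50, 15.44 and 15.37. Signals of the 30 lay between 54.3% and 99.5% of the highest signal of the array, so that differences among them may be compressed. The abundance of the most abundant transcripts cannot be read from them. Pool 2 was the highest pool for 25 of the 30 and pool 3 the lowest for 26. Among all genes above the control level these shares were 39.3% and 39.2%. Some probe sets can bind more than 1 transcript, as an _x_at, _s_at or _a_at in their name marks, and 22 of the 30 genes rest on one of these. When they were left out, 13 of the 30 stayed among the brightest 30. Averaging every probe set of a gene kept 18. The 100 brightest genes, 0.550% of all, held between 17.8% and 19.4% of the summed signal in the 3 pools.

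**Figure D2:**
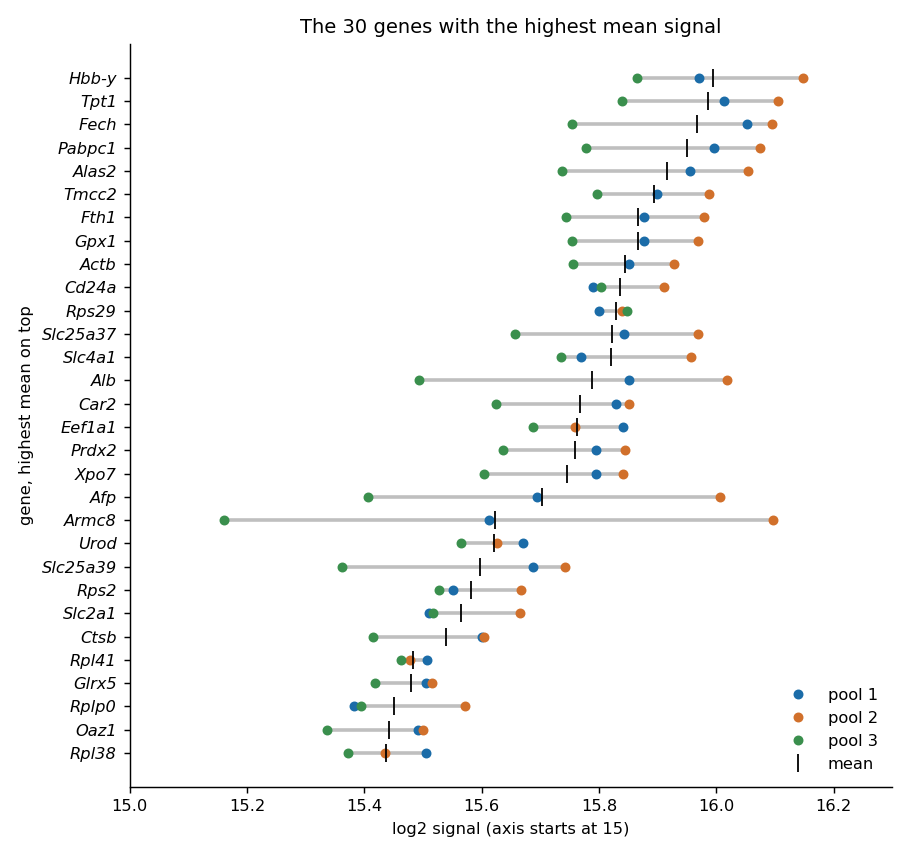
log2 signal (horizontal axis, starting at 15) of the 30 genes with the highest mean, 1 row per gene, a coloured dot for each of the 3 pools, a black bar for the mean and a grey line for the range. Ranges of neighbouring genes overlap throughout, and Armc8, Alb and Afp have the widest ranges.

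Further down, Armc8, a subunit of a ubiquitin ligase complex, had the widest spread of the 30 with 15.61, 16.10 and 15.16, an SD of 0.47. Xpo7, a nuclear export receptor of maturing erythroblasts, read 15.75 ± 0.13, and Tmcc2 15.89 ± 0.10. Rps29 and Rpl41, ribosomal protein genes, had the smallest SD of the 30, 0.02 each. Just outside the 30 were Ncoa4, the receptor for autophagy of ferritin, at 15.40 ± 0.25 and the erythroid nuclear protein gene Hemgn at 15.33 ± 0.05.

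Globins come as clusters of near-identical paralogs, each used at its own stage of development, which limits what the arrays can tell apart. Of 9 measured globin genes, 5 (55.6%) were above the control level, where 58.2% of all genes were. The 3 among the 100 brightest genes were Hbb-y, Hba-x and Hbb-b2. Besides Hbb-y, the embryonic beta-type gene Hbb-bh1 read 14.63, 14.46 and 14.15, and its other 2 probe sets had means of 13.46 and 13.55. The adult gene Hbb-b2 read 14.67, 15.05 and 15.03 at a probe set of the _x_at kind, while its other probe set read 7.78, 6.56 and 5.20, around the control level. Of 4 adult beta-type gene symbols sought, only Hbb-b2 had a probe set of its own. Its signal is therefore no measure of adult beta globin transcripts as a whole. The embryonic alpha-type gene Hba-x read 15.49, 15.91 and 14.34, with pool 3 far under the other two. Hbb-y showed the same low pool at a less bright probe set, with 15.73, 15.96 and 15.12.

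Probe sets assigned to only 1 adult alpha globin gene gave low signals. Hba-a1 read 8.63, 8.71 and 8.10. Hba-a2 was below, with 7.05, 6.31 and 7.23. The probe set with the highest mean of all, with signals of 78744, 68780 and 58482, is assigned by the annotation to both Hba-a1 and Hba-a2. Probe sets of several genes are outside the gene values, so its signal counts for neither gene here. The low values of Hba-a1 and Hba-a2 therefore say nothing about the amount of adult alpha globin transcripts. Of the globins of other tissues, Mb, the myoglobin gene, was below, and Ngb and Cygb lay around the control level, exceeding it in 1 and 2 pools. Without the _x_at, _s_at and _a_at probe sets 2 globin genes were above. Every probe set of Hbb-y and Hbb-bh1 is of these kinds, so neither gene was measured in that setting. Against the median of the control probe sets 9 globin genes were above.

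Heme synthesis and transport genes were detected almost throughout. All 8 measured genes of the synthesis pathway were above the control level, and 4 of them (Fech, Alas2, Urod and Cpox) were among the 100 brightest. Fech, which inserts iron into the ring, read 16.05, 16.09 and 15.75. Urod, which makes coproporphyrinogen, read 15.67, 15.63 and 15.57, a range within which the pools hardly differ. Alad gave 14.01, 14.59 and 14.70, Ppox 13.27 ± 0.20 and Uros 13.01 ± 0.26. Alas1, the paralog of Alas2 used by most other tissues, read 8.82, 9.57 and 9.27 at rank 5843, above the control level in every pool.

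Of 9 measured genes listed under heme transport 8 were above. The mitochondrial transporter genes Abcb10 (13.36, 13.46 and 13.97) and Slc25a38 (11.78, 12.01 and 12.20) and the exporter gene Abcg2 (13.64 ± 0.20) were bright. Flvcr1, a heme exporter gene, read 8.16 ± 0.22, and its paralog Flvcr2 lay around the control level. Tspo2, the erythroid paralog of the mitochondrial translocator protein gene Tspo, read 13.52, 14.07 and 11.99, so that pool 3 was low, while Tspo read 12.54, 12.05 and 12.68 with no such drop. In heme breakdown Blvrb, a biliverdin reductase, read 14.82 ± 0.10, where its counterpart Blvra read 10.63 ± 0.37. The oxygenase genes Hmox1 and Hmox2 read 12.11 ± 0.58 and 9.61 ± 0.25, with pool 1 the lowest for both.

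Iron genes showed a like division among paralogs. Of 25 measured, 23 were above. The importer gene Slc25a37 (mitoferrin 1) read 15.84, 15.97 and 15.66, while Slc25a28 (mitoferrin 2) read 9.14, 8.61 and 9.49. The second transferrin receptor gene, Tfr2, read 11.06 ± 0.20. Among the STEAP metal reductases the erythroid member Steap3 read 10.48 ± 0.13, Steap2 9.40 ± 0.23 and Steap1 8.22 ± 0.39, and Steap4 was below. Ferritin genes ranged from Fth1 at 15.87 ± 0.12 to the mitochondrial ferritin gene Ftmt, around the control level with 4.49, 7.54 and 7.92. The iron export gene Slc40a1 (ferroportin) read 12.49, 13.05 and 13.13, lowest in pool 1 as were the macrophage markers given below. Of the iron regulatory protein genes, Aco1 read 11.05 ± 0.31 and Ireb2 9.84 ± 0.03.

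Families of transcription factors held 1 or a few bright members each. Of the 6 GATA factor genes, Gata1 was the brightest, followed by Gata2 at 9.52, 9.48 and 9.44, a factor of earlier progenitors. Gata6 (8.51, 9.42 and 8.35) and Gata4 (8.39, 8.78 and 8.30), factors of liver, gut and heart, were above as well, both highest in pool 2. Gata5 lay around the control level, and Gata3, a T cell factor, was below with 3.92, 2.99 and 5.61. The partners of GATA1 were bright: Lmo2 read 14.39 ± 0.07, Tal1 14.23 ± 0.29 and Zfpm1, which encodes FOG1, 13.24 ± 0.30. Ldb1 read 10.03 ± 0.50. Among their paralogs Lyl1 (11.65 ± 0.30), Ldb2 (8.84 ± 0.33) and Lmo4 (8.39 ± 0.08) were above, Zfpm2, Tal2 and Lmo1 around and Lmo3 below. Of 20 factors and partners 14 were above, a count that was 8 without the _x_at, _s_at and _a_at probe sets, which also left fewer genes measured.

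Of 16 measured Kruppel-like factor genes 12 were above. Klf1 was followed by Klf3, a repressor that KLF1 activates, at 13.17, 13.55 and 14.07, with pool 3 the highest. All others were under a mean of 11, with Klf16 (10.75 ± 0.43), Klf13 (10.11 ± 0.41) and Klf6 (9.98 ± 0.13) next. Klf2, a factor of endothelium and of primitive erythroid cells, read 7.65, 7.42 and 7.59, just over the control level, and Klf15 was below. Among other factors Nfe2, a regulator of globin genes, read 14.60 ± 0.07, E2f2 14.22 ± 0.06, Sox6 13.30 ± 0.16 and Foxo3 12.94 ± 0.54. Bcl11a, a repressor of embryonic globin genes, read 10.15, 9.35 and 9.85. Gfi1b, the erythroid and megakaryocytic member of its pair, read 11.20 ± 0.39, and its paralog Gfi1 was below in all pools. Myb, a factor of proliferating progenitors, read 9.84, 9.66 and 8.52, with pool 3 lowest.

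**Figure D3:**
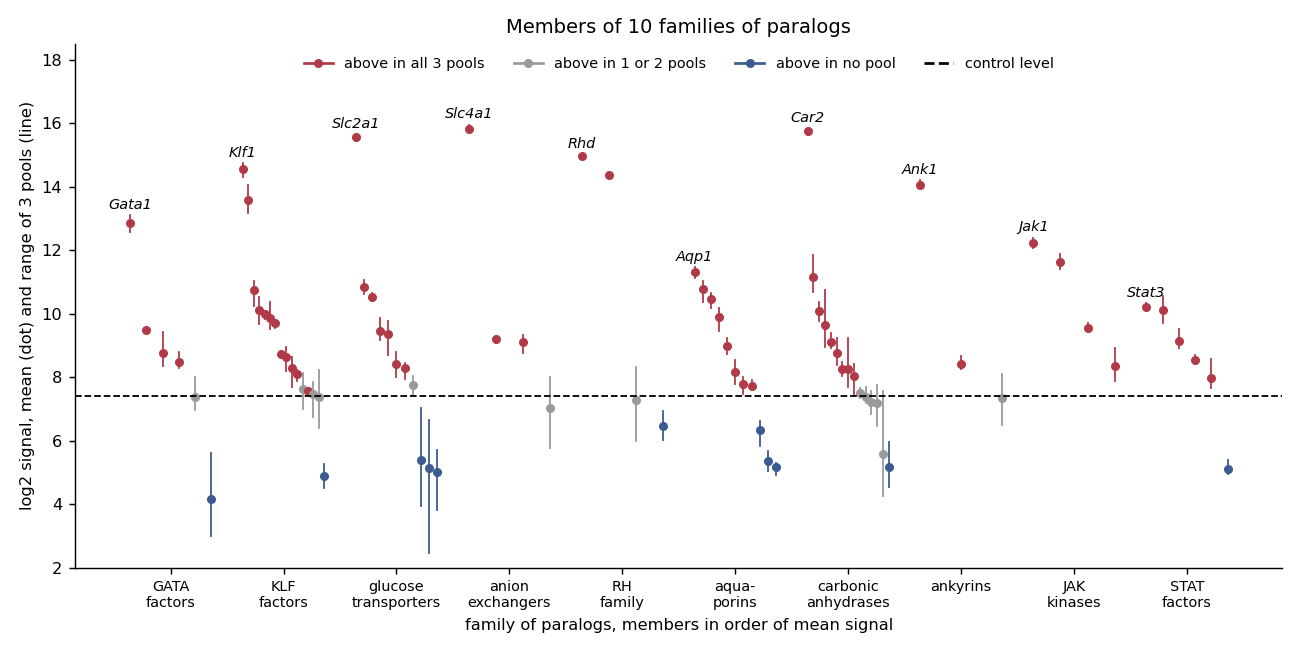
log2 signal (vertical axis) of the members of 10 families of paralogs (horizontal axis), a dot for the mean and a line for the range of the 3 pools, coloured by the call, with the control level dashed and the brightest member named. In the anion exchangers (a group that includes the cotransporter gene Slc4a4), glucose transporters, ankyrins and GATA factors the range of the brightest member lies clear of those of all others, while in the STAT factors the ranges of Stat3 and Stat6 overlap.

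Surface and membrane genes followed the same pattern. Among 11 glucose transporter genes, Slc2a1 was far up, Slc2a3 read 10.86 ± 0.22 and Slc2a4, the insulin-responsive transporter, 10.53 ± 0.13, and 3 (Slc2a6, Slc2a12 and Slc2a13) were below. Slc4a1 read 15.77, 15.96 and 15.73, and the anion exchanger gene Slc4a2 read 9.21 ± 0.12. Slc4a3, another anion exchanger gene, lay around the control level with 5.78, 7.29 and 7.99. Slc4a4, a sodium bicarbonate cotransporter gene of the same family, read 9.11 ± 0.29. Rhd and Rhag, the erythroid members of the RH family, read 14.96 ± 0.09 and 14.37 ± 0.08, while Rhcg, a kidney member, was below and Rhbg around. All 12 measured glycophorin and blood group genes were above, led by Cd24a (15.84 ± 0.07), Ermap (15.26 ± 0.06) and Kel (14.83 ± 0.04).

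Of 11 aquaporin genes 8 were above, but none was among the brightest. Aqp1, the water channel of red cells, read 11.13, 11.33 and 11.47, and Aqp11 followed with 10.91, 11.04 and 10.36, a step under Aqp1 in all pools. Of 15 carbonic anhydrase genes 9 were above (60%, near the 58.2% of all genes), with Car2 at 15.83, 15.85 and 15.62. Car1, a carbonic anhydrase of adult red cells, read 9.25, 8.95 and 10.74, over 2-fold higher in pool 3 than in either other pool. Car3 read 10.98, 11.86 and 10.68, highest in pool 2.

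Of 27 genes of the membrane skeleton 23 were above. The erythroid paralogs Ank1 (14.07 ± 0.12), Sptb (13.70 ± 0.09) and Epb42 (13.71 ± 0.04) were bright, and the general forms Ank3 (8.42 ± 0.22), Sptan1 (8.86, 9.65 and 9.61) and Sptbn1 (9.59, 10.51 and 10.44) were dimmer, the last 2 lowest in pool 1. Mpp1 (14.88 ± 0.19), Dmtn (14.70 ± 0.24), Add1 (13.64 ± 0.08) and Tmod1 (12.45 ± 0.15), which join the skeleton to actin or to the membrane, were bright too, and the muscle form Tmod4 was below.

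Genes of cytokine signalling were detected at moderate levels. Epor, the erythropoietin receptor gene, read 12.78, 12.64 and 13.07. Its kinase gene Jak2 read 11.62, 11.41 and 11.87, Jak1 12.24 ± 0.17, Tyk2 9.55 ± 0.15 and Jak3, known from lymphoid cells, 8.23, 8.93 and 7.88. Of 6 measured STAT genes 5 were above, with Stat3 at 10.22 ± 0.09, Stat6 at 10.12 ± 0.42, Stat5b at 9.13 ± 0.33, Stat5a at 8.54 ± 0.15 and Stat2 at 7.98 ± 0.52, and Stat4 was below. Of the survival genes of the BCL2 family, Bcl2l1 (14.11 ± 0.34) and Mcl1 (13.39 ± 0.17) were bright, and Bcl2 read 8.79 ± 0.42. Kit, the stem cell factor receptor gene of earlier erythroblasts, read 9.04, 8.70 and 7.71, lowest in pool 3.

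Transcripts of cell division and of late maturation were both present in the RNA of these pools. All 18 genes of replication and mitosis were above, led by Mki67 (15.13 ± 0.05) and Pcna (15.08 ± 0.26). Ccnd3, the D cyclin that sets the number of erythroid divisions, read 13.60 ± 0.29, where Ccnd1 read 10.60 ± 0.24 and Ccnd2 9.26 ± 0.31. Among the inhibitors, Cdkn2d (13.67 ± 0.28) and Cdkn2c (12.23 ± 0.17) were bright, and Cdkn2a and Cdkn2b were below. Of 22 measured genes of organelle clearance and enucleation 21 were above. Trim10 read 15.16 ± 0.14, Ube2h 14.52 ± 0.36 and Ube2o 14.41 ± 0.19, and Alox15, a lipoxygenase of reticulocytes, was below in all 3 pools. In glycolysis Bpgm, which makes the 2,3-bisphosphoglycerate of red cells, read 15.27, 15.32 and 14.77, and Pklr, the liver and red cell pyruvate kinase, 12.61, 11.91 and 13.06. Of 21 measured glycolysis genes 17 were above, and the testis forms Pgk2 and Ldhc, the muscle form Pgam2 and the neuronal form Eno2 were below. Without the _x_at, _s_at and _a_at probe sets 9 were above, a setting in which only 424 of the 493 members of all lists were still measured.

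Transcripts of other cell types of the fetal liver were present, and hepatocyte genes most of all. Of 28 measured hepatocyte markers 24 were above and 4 around the control level. Alb read 15.85, 16.02 and 15.49, and Afp 15.69, 16.01 and 15.41. Ttr, the transthyretin gene, read 14.19, 14.95 and 13.97, and the apolipoprotein gene Apoa1 14.04, 14.59 and 13.54. Liver factors and enzymes were dimmer, from Krt8 at 10.80 ± 0.47 and Hnf4a, the main hepatocyte nuclear receptor, at 10.51 ± 0.31, down to Tat, G6pc, Pck1 and Onecut1 around the control level. In bulk RNA, fewer cells of a type and less RNA per cell cannot be told apart. The part of these markers in the values of other genes was not tested.

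Macrophage genes were the next brightest. In fetal liver, macrophages stand at the centre of erythroblastic islands and take up expelled nuclei. Of 15 markers 13 were above. Csf1r, their growth factor receptor gene, read 12.46, 13.12 and 13.22, Adgre1, which encodes F4/80, 11.07, 11.79 and 11.86, and C1qc 10.93, 11.47 and 11.68. Pool 1 was the lowest for all but 1 of the 13. Cd163 and Itgam were below in all 3 pools.

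Other lineages gave lower signals. Of 10 measured megakaryocyte genes 7 were above, led by the platelet factor gene Pf4 (10.61, 11.68 and 12.89). Of 10 granulocyte genes 8 were above, led by Mpo, myeloperoxidase, at 10.89 ± 0.35 and S100a8 at 10.44 ± 0.38. Of 13 endothelial genes 7 were above, 53.8% where 58.2% of all genes were. None was over a mean of 10, with Eng at 9.56 ± 0.30 and Cdh5 at 9.43 ± 0.49. Of 12 stellate and mesenchymal genes 9 were above, with Reln at 11.95 ± 0.41 and Col1a2 at 9.97 ± 0.42. Of 13 stem and progenitor genes 8 were above, 61.5%, near the share of all genes. The brightest was Cebpa at 10.36 ± 0.56, a gene that hepatocytes also express. Averaged over every probe set of a gene, these last 2 counts were 5 and 4. Without the _x_at, _s_at and _a_at probe sets, where fewer genes were measured over all lists, the endothelial count was 4.

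Lymphoid, mast cell and cholangiocyte markers were mostly not above the control level, a count that depends on where that level is set. Of 10 measured B cell genes 2 were above, Pax5 (8.59 ± 0.45) and Ms4a1 (8.18 ± 0.09), while Rag1, Rag2, Vpreb1, Cd79b and Ebf1 were below in all 3 pools. Of 12 T and NK cell genes 1 was above, Cd8a with 10.32, 10.65 and 9.96, while Cd3d, Cd3g, Cd247, Cd4 and Cd2 were below. Cd8a has 5 probe sets, 2 of them above, 1 around and 2 below the control level, so the call rests on the rule that takes the brightest. Of 10 mast cell, basophil and eosinophil genes 2 were above, Cma1 (8.21 ± 0.44) and Epx (7.68 ± 0.33), and of 4 cholangiocyte genes 1, Epcam (8.97 ± 0.11). Against the highest control probe set of each array these counts were 1, 1, 0 and 1, and averaged over every probe set of a gene the B cell, T cell and cholangiocyte counts were 0. Without pool 3 the T and NK cell count was 3. Against the median of the control probe sets, 7 of 10 B cell, 10 of 12 T and NK cell, 9 of 10 mast cell, basophil and eosinophil and 4 of 4 cholangiocyte genes were above.

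Genes known mainly from other tissues were read in the same way. Of 15 such genes 3 were above, and of all genes 58.2%. These were Gfap, known from astrocytes and also from hepatic stellate cells (10.45, 10.20 and 10.31), Syt1 of neurons (8.71 ± 0.22) and Prm1 of sperm (8.70 ± 0.29). Below in all 3 pools were 8, among them Snap25, Myh6, Krt5 and the germ cell genes Ddx4 and Sycp3. All 3 probe sets of Gfap were above, at means of 10.32, 9.27 and 8.22. Being above the control level alone does not show that a transcript belongs to these cells. Against the median of the control probe sets, which is far lower, 11 of the 15 were above.

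**Figure D4:**
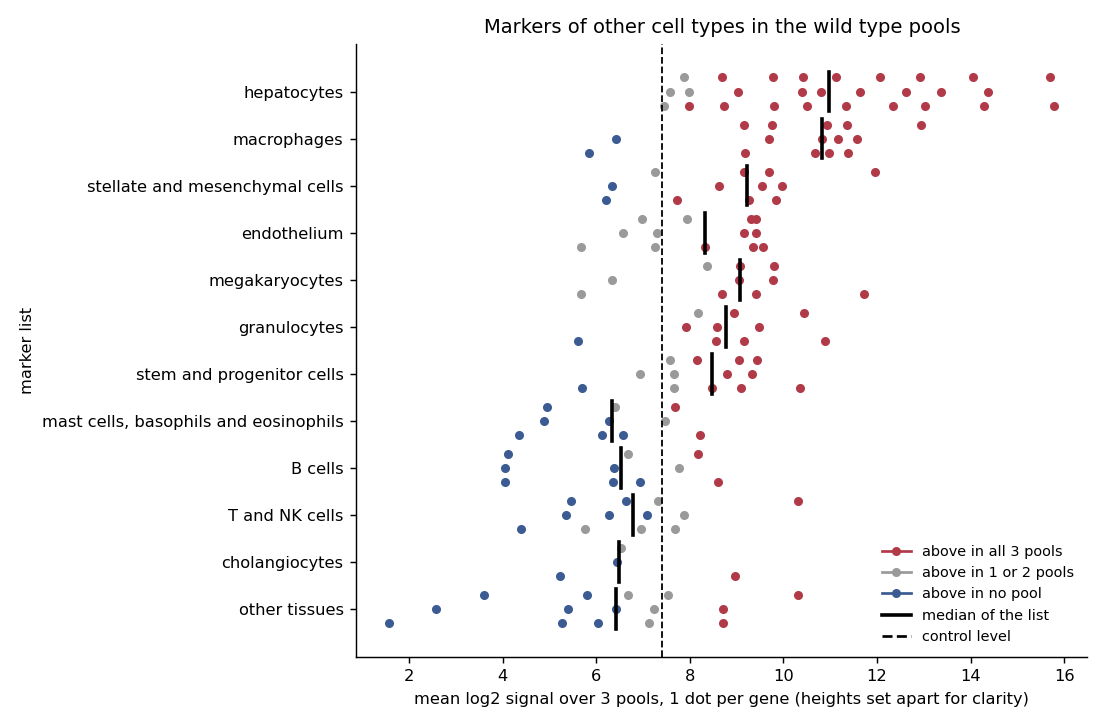
Mean log2 signal over the 3 pools (horizontal axis) of each gene of 12 marker lists (vertical axis), 1 dot per gene coloured by the call, with the list's median as a black bar and the control level dashed. Hepatocyte and macrophage lists have medians near 11, while lymphoid, mast cell, cholangiocyte and other-tissue lists have medians under the control level.

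The 3 pools agreed closely for bright genes and poorly for dim ones. Across the 10592 genes above the control level, Pearson's r was 0.959 for pools 1 and 2, 0.963 for pools 1 and 3 and 0.945 for pools 2 and 3, and Spearman's rho was 0.929, 0.936 and 0.913. Across the 4551 genes below it r lay between 0.507 and 0.521. These are correlations across genes, which are not independent replicates, and they come from 3 arrays scaled one by one. The median SD was 0.25 for genes above and 0.68 for genes below, and by level it was 0.82 for means under 4, 0.87 between 4 and 6 and 0.14 over 14. A range over 2-fold was seen in 885 of the genes above (8.36%) and in 5724 of all genes. Among genes above, 103 were over 2-fold lower in pool 3 than in both other pools and 71 were over 2-fold higher in pool 2, where the other 4 counts of this kind lay between 16 and 35. Median log2 signals of all genes were 8.32, 8.46 and 8.18 in pools 1, 2 and 3. For actin, the signal at the 3′ end over that at the 5′ end lay between 0.965 and 0.995. For Gapdh it was 0.919, 0.752 and 0.895, with pool 2 the lowest.

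The genes that differed most between pools were of several kinds. Pool 3 was the lowest for 39.2% and the highest for 32.1% of genes above the control level. Of the 15 of these genes with the largest range, it was the lowest for 9 and the highest for 4. Ift140, a gene of ciliary transport, ranged furthest among these with 11.71, 13.47 and 9.48. Tubb1, the beta tubulin of platelets, read 10.89, 9.57 and 13.34, and Ppbp, a platelet chemokine gene, 8.14, 9.27 and 11.89. Rpgrip1 read 12.64, 11.39 and 9.95, Dapk2, a kinase, 11.43, 11.07 and 8.97, Gpaa1 11.52, 11.92 and 9.49 and Gcnt1 11.52, 11.89 and 9.49, the last 3 with pools 1 and 2 close together and pool 3 apart. Adcy5, Stk10, Tnfrsf14, Nr5a1, Gpld1 and Gm38434 had ranges between 2.25 and 2.51.

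Sex-linked genes differed as well. Xist, the RNA that coats the inactive X chromosome of females, read 12.55, 11.98 and 9.23 at its brightest probe set. Its other 2 probe sets fell from 10.97 and 10.99 in pools 1 and 2 to 2.71 in pool 3, and from 9.89 and 9.87 to 5.76. The Y-linked gene Eif2s3y ran the other way with 7.08, 8.55 and 9.91. Kdm5d, also Y-linked, read 6.95, 8.02 and 8.16, and Uty 8.31, 7.58 and 8.53, with pool 2 lowest. The sex of the embryos in each pool was not tested.

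Several marker lists moved together from pool to pool, in different ways. All 24 hepatocyte markers above the control level were highest in pool 2, where 39.3% of genes above were, and 21 of the 24 were lowest in pool 3, where 39.2% were. Their mean deviation from the gene's own mean was -0.06, 0.48 and -0.42 in pools 1, 2 and 3, and their summed signal was 224719, 304093 and 177421. Of the 8 granulocyte genes above, 7 were highest in pool 2. Of the 13 macrophage genes above, 12 were lowest in pool 1, where 26.4% of genes were, with a summed signal over the 15 measured of 21586, 33323 and 34009. Of the 7 megakaryocyte genes above, 6 were highest in pool 3 (32.1% of genes), with mean deviations of -0.56, -0.11 and 0.67. Of the 8 stem and progenitor genes, 7 were lowest in pool 3, by a mean deviation of -0.52.

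All 18 genes of replication and mitosis were lowest in pool 2, where 34.4% of genes were, and 16 of them were highest in pool 3. Mcm2 read 12.84, 12.07 and 12.94 and Mcm7 14.20, 13.60 and 14.39. The erythroid lists differed among themselves. Heme, iron and membrane skeleton genes had mean deviations between -0.07 and 0.05 in every pool. Of the 21 maturation genes above, 15 were highest in pool 2 and 15 lowest in pool 3. The 5 globin genes above had a mean deviation of -0.31 in pool 3, from -0.91 for Hba-x to 0.11 for Hbb-b2. Housekeeping genes had deviations between -0.02 and 0.02. Median centring of the arrays, which moves the pools by up to 0.15 on the log2 scale, gave housekeeping genes -0.17 in pool 2 and 0.15 in pool 3. It also gave heme genes -0.15 and 0.20, iron genes -0.15 and 0.17 and membrane skeleton genes -0.11 and 0.18 in these pools. The direction of the maturation genes in both pools turned with it, and the globin genes had -0.17 in pool 3. With the same centring, all 18 replication genes were still lowest in pool 2, and 21 of the 24 hepatocyte markers were highest there. Hepatocyte markers were thus high and replication genes low in the same pool, which is also the pool with the lowest Gapdh ratio. The part of any of these in the others was not tested.

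**Figure D5:**
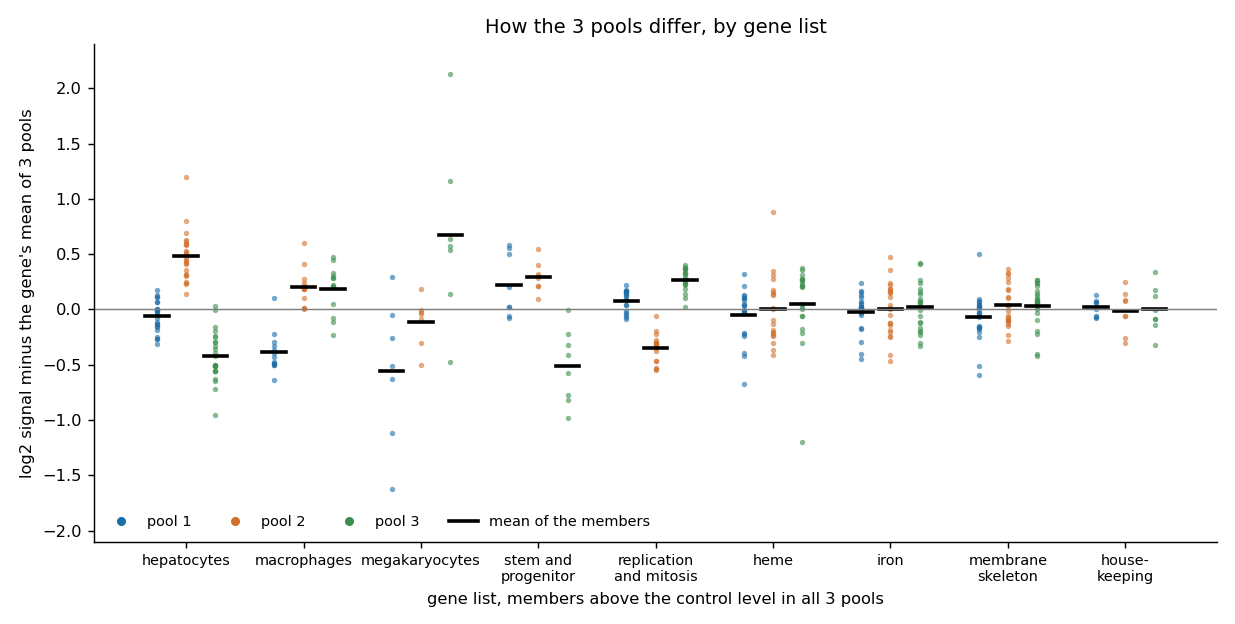
Log2 signal minus the gene's own mean of 3 pools (vertical axis) for members above the control level of 9 gene lists (horizontal axis), a dot per gene and pool, with a black bar for the mean of the members. Hepatocyte genes lie high in pool 2 and low in pool 3, macrophage genes low in pool 1, megakaryocyte genes high in pool 3 and replication genes low in pool 2, while heme, iron, membrane skeleton and housekeeping genes centre near 0 in all 3 pools on the scale deposited (not after median centring, where housekeeping genes reach -0.17 in pool 2 and heme genes 0.20 in pool 3).

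Transcripts known to be induced when tissue is handled spanned a wide range. Of 18 such genes 15 were above, with a list median of 9.38 where all genes gave 8.29. The brightest was Hsp90aa1, a chaperone gene abundant in most cells, at 14.20 ± 0.10. Fos read 9.04, 8.77 and 9.61, Egr1 8.20, 9.55 and 8.41 and Hspa1a, an inducible heat shock gene, 8.29, 7.75 and 8.46. Dusp1 (12.02, 11.44 and 12.59) and Jund (13.68 ± 0.13) were brighter, Egr2 and Atf3 lay around the control level, and Fosb was below. No pool was the highest for all of them.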

How the data were processed

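RNA of each pool was hybridised to 1 Affymetrix Mouse Genome 430 2.0 array, per the labels' protocols. The deposited table gives an intensity for every probe set of an array, not on a log scale. RMA and Partek are named in the submitters' processing notes without a version. Standard RMA output is log2, but these values are not, and on each array their mean is 500.003 once the top and bottom 2% are dropped. The sources used here do not say how the values were scaled. From the 3 wild type columns, log2 of the deposited intensity was taken with no pseudocount, as no value was 0 or below, with Python 3.11.15, pandas 2.3.3 and scipy 1.17.1.

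Gene names came from the annotation of the array platform: of 45037 other than 64 controls, 34945 had 1 gene symbol, 932 several and 9160 none, and only the first kind entered the gene values. By Entrez ID 34741 matched a RefSeq table of GRCm38.p6, and 0 symbols changed. Of 9010 genes with several probe sets, 2352 had all of them above the control level, 4325 some and 2333 none, and the median gap between brightest and dimmest was 2.28 on the log2 scale. Since 1 group is described, no test was made, and replicates are separate pools of animals, so SDs hold the spread between pools. Members and gene lists (29 lists, 493 genes with a probe set of their own) were chosen with earlier results of these data known, and the ribosomal protein genes, taken by symbol, after their values were seen. The genes named are the 30 brightest, the 6 markers, members of the paralog families, leading and absent markers of each cell type, the 15 largest ranges, the sex-linked list and examples of the handling list. Further genes were picked as examples after their values were seen.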

Additional observations from a re-analysis of the deposited data

How the results depend on the processing

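No paired analysis was possible because only 1 group is described, so that its replicate numbers pair no samples. Alternatives were other scalings, other ways to choose the probe set of a gene, other control levels, 32 added to the linear value and leaving out each pool. The counts of genes above (10592), below (4551) and around (3050) the control level moved by over 1.5 times against the median of the control probe sets, to 16156, 380 and 1657, as that level is lower by construction. Without 1 pool the count around it was 2172, 1960 and 1921 without pools 1, 2 and 3, as fewer arrays have to agree. Of the 30 brightest genes 18 stayed with the mean of all probe sets and 13 without _x_at, _s_at and _a_at probe sets, and between 26 and 30 under the other alternatives. The lowest correlation of 2 pools over all genes, 0.921, was 0.911 with the mean of all probe sets, 0.909 without those probe sets, 0.945 with 32 added, 0.945 over genes above the control level only, and 0.921 to 0.926 without 1 pool. Genes with a range over 2-fold numbered 885 among genes above only and 3655, 3263 and 3053 without pools 1, 2 and 3, as 2 arrays span less than 3. Of 493 calls of list members, averaging all probe sets changed 83 (25 of them from above to below), the highest control probe set 76, the median of the controls 124 and the level over all 3 arrays 11. Of the 424 members still measured without _x_at, _s_at and _a_at probe sets 23 changed. Leaving out 1 pool changed 13 to 29, and quantile normalization, median centring and adding 32 changed 0. Small deviations of pools depended on the scaling: after median centring the maturation list went from 0.12 to -0.03 in pool 2 and from -0.15 to 0.0017 in pool 3, and the stellate list in pool 3 from -0.15 to -0.0029. Depth has no meaning for arrays, and signals near the control level or near the ceiling bound what can be ranked.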

Other observations

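Of the 100 brightest probe sets, 66 had 1 gene in the annotation, 22 several and 12 none, so that 34 of them have no gene value here. Among the 49 ribosomal protein genes measured, taken by an Rpl or Rps symbol, 46 were above the control level and their median log2 signal was 14.49. Of these 46, 35 were lowest in pool 2, the pool in which the replication genes were lowest as well, where 34.4% of genes above were. The ribosomal protein genes were picked after their values were seen, and the cause was not tested. The most even genes with a mean over 12 were Acp1, a phosphatase gene, with 14.68 in each pool, and Pdia3, a protein disulfide isomerase gene, with 12.04, 12.03 and 12.04.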
